A study of Mus musculus with 8 samples.

Results

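The genes described here encode the nuclear subunits of the mitochondrial respiratory chain and of ATP synthase. They were chosen by symbol: every gene whose platform symbol begins with Nduf, with Sdh and a letter from a to d, with Uqcr, with Cox4 to Cox8 or with Atp5, on a probe set annotated to that gene alone. The rule took 87 of the 12393 genes that had a probe set of their own. Of these, 78 encode subunits. The other 9 share only the letters of the symbol and were counted apart: 8 assembly factors and Cox7a2l, a protein that helps complexes III and IV join.

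The samples came from yolk sacs of FVB/N mice at embryonic day 9.5, untreated and with no modified allele named in the labels. In 4 erythroid samples, primitive erythroid precursors, the first red cell precursors of the embryo, were cut with a laser from frozen sections. In 4 epithelial samples, epithelial cells were taken from the slides already used for the erythroid cells, so that each erythroid sample has an epithelial partner. The labels give 2 to 3 laser pulses per cell for erythroid samples and 1 for epithelial samples, which cannot be told apart from cell type. They give 10 to 39 ng of RNA for all samples. Each pair pooled 2 to 4 yolk sacs from 2 litters, and each sample was read on 1 Affymetrix array with 1 signal per probe set. The pairs are thus separate pools of embryos, and p-values measure the spread between pools.

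In the inner mitochondrial membrane, complex I takes electrons from NADH and complex II takes them from succinate. Both pass them to ubiquinone, from which complex III hands them to cytochrome c and complex IV to oxygen. Complexes I, III and IV pump protons, and ATP synthase (complex V) lets the protons back through a rotating ring to make ATP. Complex II is also an enzyme of the Krebs cycle, and is the only one of these complexes with no subunit encoded in mitochondrial DNA. Primitive erythroid precursors make haem, whose first and last steps take place inside mitochondria.

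Most of these genes had small measured differences between the kinds of capture. A gene was tested if its probe set reached the array's median signal on at least 4 of the 8 arrays, which held for 83 members, 77 of them on all 8 arrays. With p-values adjusted by the Benjamini-Hochberg method for the 11449 probe sets tested (limma, two-sided, threshold 0.05), Ndufs3 was higher in erythroid captures and Cox6b1 and Atp5a1 were lower. These 3 of 83 members are 3.61%, while 14.9% of the 7191 genes tested were called, 6.02% as higher and 8.87% as lower. Without adjustment, 15 members had a p under 0.05. Unadjusted counts, here and below, are not set beside a count over all genes and cannot be read as particular to the members. None of the 3 calls held in every alternative analysis: Ndufs3 was called in 9 of 17, Cox6b1 in 5 and Atp5a1 in 4. Ndufs3 had 1 probe set, so alternatives that read other probe sets or their mean could not change its value. Those alternatives are among its 9.

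All differences are given as log2 values, erythroid minus epithelial, after quantile normalisation. The median difference was -0.07 over the 83 members and -0.01 over all genes tested. The median size of a difference, without its sign, was 0.19 over members and 0.36 over all genes. The interquartile range ran from -0.26 to 0.16 over members and from -0.38 to 0.35 over all genes. The members therefore lay in a narrower range than the genes of the array as a whole.

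Among the 83 members tested, the most extreme were Cox7a1 at -0.87 and Ndufs3 at 0.75, so that none of them reached a difference of 1, which is a 2-fold change. For 72 of the 83 members (86.7%) the 95% interval of the difference lay within 1 log2 unit of 0 on either side, which held for 52.5% of all genes. For 30 members it lay within 0.5, and for the others a difference beyond 0.5 was not excluded. A total of 49 members had a value below 0 and 34 a value above 0. The sign was the same in all 4 pairs for 25 members (30.1%), 10 of them higher and 15 lower, against 38.2% of all genes.

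The members were bright on these arrays, and bright probe sets are measured with less error. Of the 83 members, 64 were among the 1798 tested genes in the top quartile of mean signal. In that quartile 24.1% of all genes were called, and 3 of the 64 members. The median size of a difference there was 0.17 for members and 0.32 for all genes, and the median standard error was 0.15 for members and 0.18 for all genes. The summed signal of the members was 4.35% to 5.23% of the signal of all tested genes in the erythroid captures and 4.43% to 5.47% in the epithelial ones, ranges that overlap over most of their length.

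**Figure D1:**
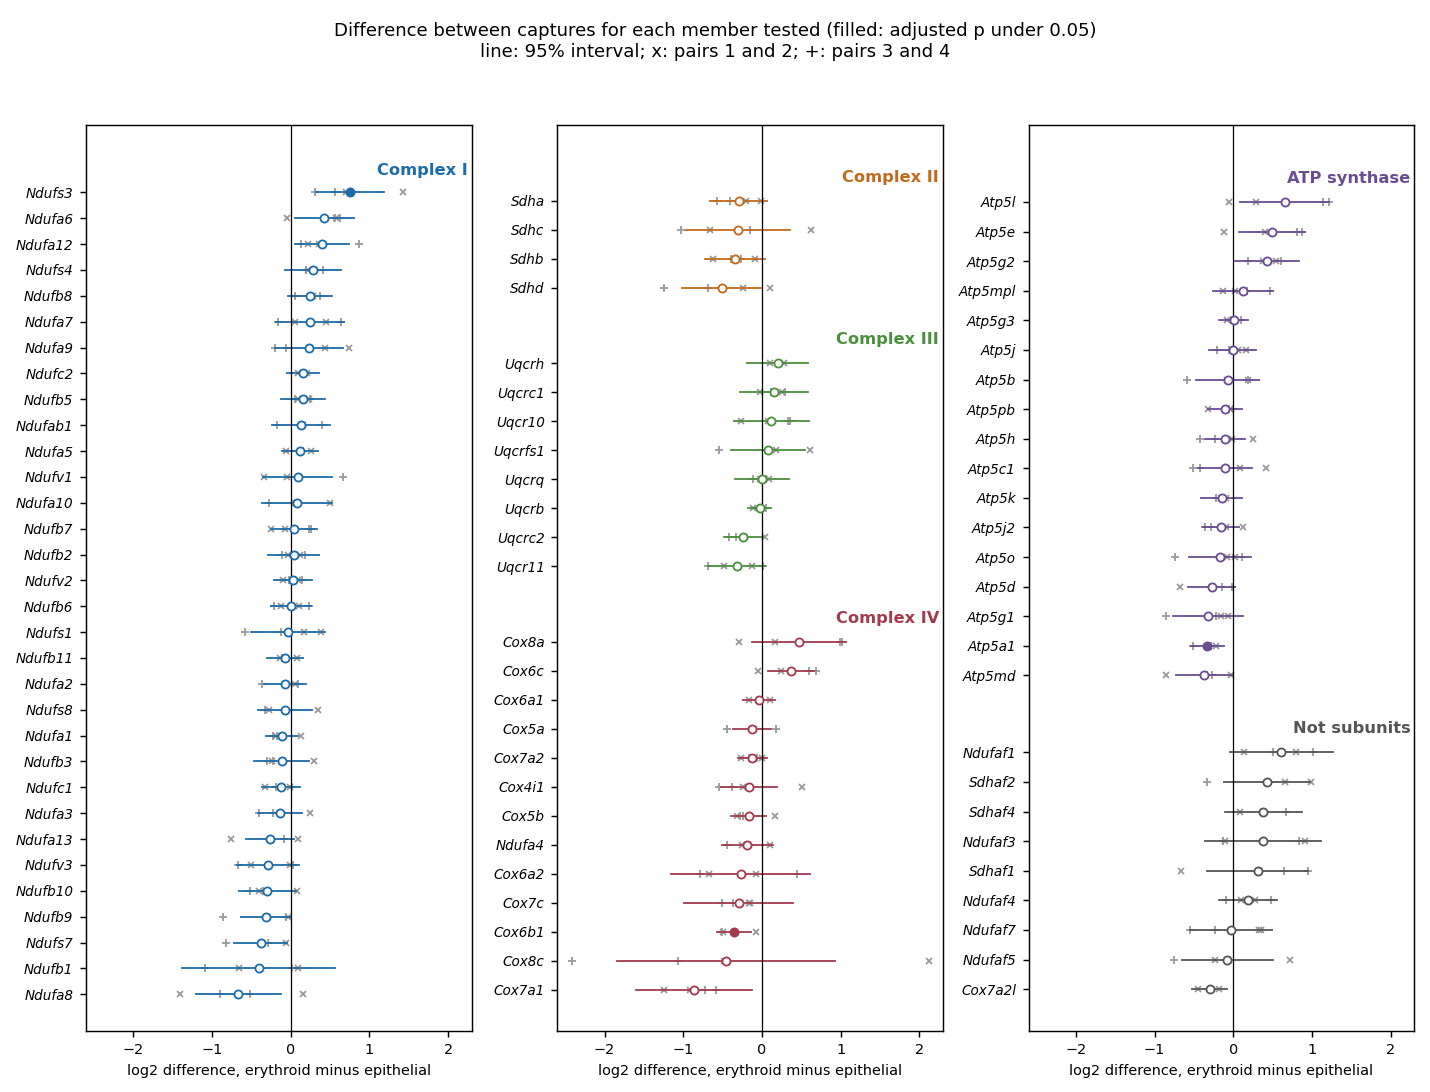
Each circle is the log2 difference, erythroid minus epithelial, of 1 of the 83 members tested (horizontal axis), with its 95% interval as a line, and members are ordered by value within each complex. Grey crosses are pairs 1 and 2, grey plus signs pairs 3 and 4, and the 3 filled circles are the members with an adjusted p under 0.05: Ndufs3 at 0.75, Atp5a1 at -0.33 and Cox6b1 at -0.35.

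Promoter sequence was taken from RefSeq (GRCm38.p6) as the 250 bases before the annotated start, which were held for 73 of the 87 members, 5 of them with more than 1 window. Genes for the respiratory chain are known for promoters with sites for NRF1, for the Ets factor GABP and for YY1. The exact letters CGCATGCG (NRF1) were present on either strand in 7 of the 73 members (9.59%), in 3.98% of the tested genes and in 1.75% of all genes with a window. The site was first searched in a longer form of 10 letters, with G before and C after these 8, which gave 4 members (5.48%), 1.97% of tested genes and 0.877% of all genes. The shorter form was taken up after those counts were known. CCGGAAG (Ets) was present in 14 members (19.2%), 17.2% of tested genes and 7.83% of all genes. AAGATGGC (YY1) was present in 1 member (1.37%), 2.77% of tested genes and 1.83% of all genes. For comparison, AGATAA, the core read by the erythroid factor Gata1, was present in 6 members (8.22%), 6.52% of tested genes and 11.4% of all genes. TATAAA, the TATA box, was present in 6 members (8.22%), 8.10% of tested genes and 14.3% of all genes. A match is a description of the letters and not of binding, which was not measured here.

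Of the 3 windows printed here, the first and second belong to the member called higher and to a member called lower. Both hold the Ets letters within 30 bases of the start, Ndufs3 on its own strand from base -27 and Cox6b1 on the opposite strand from base -28. The remaining called member, Atp5a1, was not among the members with the Ets letters, and no window of it is printed. The last window, of Atp5g2, holds the NRF1 letters from base -41. The windows are chr2:90904722-90904971, chr7:30626115-30626364 and chr15:102671048-102671297, all on the minus strand and printed 5′ to 3′ along the gene, with the matching letters in capitals.
Ndufs3: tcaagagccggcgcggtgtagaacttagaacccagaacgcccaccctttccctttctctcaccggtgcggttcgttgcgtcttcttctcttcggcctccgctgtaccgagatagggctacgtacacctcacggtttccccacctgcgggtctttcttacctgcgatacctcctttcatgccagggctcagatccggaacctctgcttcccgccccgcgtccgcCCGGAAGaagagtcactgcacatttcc
Cox6b1: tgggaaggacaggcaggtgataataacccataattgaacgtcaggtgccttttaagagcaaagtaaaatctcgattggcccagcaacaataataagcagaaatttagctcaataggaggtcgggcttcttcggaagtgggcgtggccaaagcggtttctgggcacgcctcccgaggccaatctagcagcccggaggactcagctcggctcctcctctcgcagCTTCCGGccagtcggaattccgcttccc
Atp5g2: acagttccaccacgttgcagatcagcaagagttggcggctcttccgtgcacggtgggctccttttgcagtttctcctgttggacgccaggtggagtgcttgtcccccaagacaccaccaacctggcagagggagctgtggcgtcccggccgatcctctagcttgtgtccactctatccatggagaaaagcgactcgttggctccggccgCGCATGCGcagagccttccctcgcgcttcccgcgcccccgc

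Complex I had the most members, with 33 subunits, of which 32 were tested. Ndufs3 was the 1 called higher, none was called lower, and the median difference was 0.02, with 17 values above 0 and 15 below. Without adjustment, 3 subunits had a p under 0.05 with higher values (Ndufs3, Ndufa6 and Ndufa12) and 2 with lower values (Ndufa8 and Ndufs7). The medians of pairs 1 to 4 were 0.10, -0.03, -0.09 and 0.03, on both sides of 0. With arrays centred on their medians, which moved the median of all genes to -0.14, the medians of complexes I and III were -0.17 and -0.11, so their direction depends on the scaling.

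Ndufs3 is a core subunit of the arm of complex I that leads electrons to ubiquinone. Its signal in the erythroid captures of pairs 1 to 4 was 3571, 3147, 3765 and 3597. In the epithelial partners it was 1279, 1878, 3212 and 2730. The erythroid value was higher in all 4 pairs, while the groups overlapped: the lowest erythroid value lay below the highest epithelial one. The erythroid values were close to each other, and the epithelial values of pairs 1 and 2 were the low ones.

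The log2 difference of Ndufs3 was 0.75 ± 0.19 (SE, n = 4 pairs, limma adjusted p = 0.0276), with a 95% interval from 0.32 to 1.18. Pairs 1 and 2 gave 1.07 but pairs 3 and 4 gave 0.44, a difference between the sets that did not pass the test (limma adjusted p = 0.388). The gene had 1 probe set, so no second measurement was at hand. Over the 17 alternatives its adjusted p ranged from 2.17e-05 to 0.213. The call was lost without pair 1 (0.53, limma adjusted p = 0.0985), without pair 2 (0.77, adjusted p = 0.0633) and without pair 4 (0.82, adjusted p = 0.0837), and held without pair 3. With arrays centred on their medians in place of quantile normalisation the value was 0.53 (limma adjusted p = 0.213).

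On the probe sets read, the other core subunits of complex I had smaller differences. Ndufv1, Ndufv2 and Ndufs1, which carry the site where NADH is oxidised and the first iron-sulphur clusters, had differences of 0.09, 0.03 and -0.03. Ndufs7 and Ndufs8, which sit in the same arm as Ndufs3 and carry the last clusters before ubiquinone, had differences of -0.38 (limma adjusted p = 0.12) and -0.08. Other tested probe sets of Ndufs8 ran from -0.04 to 1.66, and none was called. The probe set at 1.66 had erythroid signals of 159, 228, 236 and 280 and epithelial signals of 224, 137, 26.3 and 6.07. Hence the core subunits lay on both sides of 0, with Ndufs3 the only one past the threshold.

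Among the 26 accessory subunits tested, values ran from -0.67 to 0.43 with a median of 0.02. Ndufa8, an accessory subunit on the side of the intermembrane space, was the lowest, at -0.67 ± 0.24 (SE, n = 4 pairs, limma adjusted p = 0.0957), and was lower in 3 of 4 pairs. It was called with arrays centred on their medians (-0.88) and without pair 1 (-0.94). Ndufb6, a subunit of the membrane arm, had the smallest difference of complex I at 0.00, with a 95% interval from -0.26 to 0.26. The erythroid Ndufb6 signals were 8619, 9739, 9364 and 7900 and its epithelial signals 10194, 7752, 10686 and 7066, with no order between the groups. Ndufs5 was not tested, because its signal reached the array median on 3 arrays: it lay between 95.3 and 166 in erythroid captures and between 7.08 and 472 in epithelial ones.

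All 4 subunits of complex II were below 0 and none was called. The median difference was -0.32, and the medians of pairs 1 to 4 were -0.15, -0.32, -0.54 and -0.48. Sdha, which holds the flavin and the succinate site, had a difference of -0.30, and Sdhb, the iron-sulphur subunit, of -0.34. Both were lower in all 4 pairs. Sdhc and Sdhd anchor the enzyme in the membrane and had differences of -0.30 and -0.51. Without adjustment, 1 of the 4, Sdhd, had a p under 0.05.

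Sdhd had the largest difference of complex II on the probe sets read (-0.51 ± 0.23, SE, n = 4 pairs, limma adjusted p = 0.157). Its erythroid signals were 837, 1380, 2029 and 1830 and its epithelial signals 950, 1316, 3384 and 4165. In pairs 1 and 2 both captures gave similar values, and in pairs 3 and 4 the epithelial signal was well above the erythroid one. The difference was accordingly -0.07 for the first set but -0.96 for the other, and the test of the difference between the sets did not pass (limma adjusted p = 0.213). A second probe set of Sdhd had a difference of -0.18 (limma adjusted p = 0.55). It gave -0.21 for the first set and -0.15 for the other, without that gap between the sets.

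Sdha gave erythroid signals of 1937, 2141, 2212 and 2771 and epithelial signals of 2263, 2199, 3050 and 4142. Sdhb gave 1424, 1034, 1858 and 2314 against 1521, 1635, 2324 and 3121. For both genes the groups overlapped although each epithelial capture exceeded its partner. The signs of Sdhc were less even, with 0.63 in pair 1 and -1.03 in pair 3, and its second probe set had a difference of 0.72. Without pair 1 the median of complex II was -0.52, and with pairs 1 and 2 alone it was -0.09.

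Complex III had the most even medians over the pairs. On the probe sets read, none of its 8 subunits was called and none had an unadjusted p under 0.05 (limma). The median difference was 0.04, the medians of the 4 pairs lay between 0.00 and 0.05, and all 8 intervals lay within 1 log2 unit of 0. Uqcrfs1, the Rieske iron-sulphur protein that takes electrons from ubiquinol, had a difference of 0.08, with 0.61 in pair 1 and -0.55 in pair 3. Uqcrb, an accessory subunit, had a difference of -0.03 on the probe set read. Its second probe set had one of 0.40 ± 0.17 (SE, n = 4 pairs, limma adjusted p = 0.151). The largest difference was that of Uqcr11, a small accessory subunit, at -0.32 ± 0.16 (SE, n = 4 pairs, limma adjusted p = 0.219). Uqcrq, which binds next to cytochrome b, had the smallest, at 0.00 with an interval from -0.34 to 0.34. The erythroid Uqcrq signals were 2129, 2371, 2859 and 2522 and its epithelial signals 2203, 2259, 2934 and 2819, each pair close to equal.

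Complex IV had 16 nuclear subunits, of which 13 were tested. Cox6b1 was called lower, and 11 of the 13 values were below 0, with a median of -0.17. The medians of pairs 1 to 4 were 0.00, -0.24, -0.28 and -0.37. Cox6c (0.37) and Cox8a (0.47) were the 2 subunits above 0, and neither passed the test.

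Cox6b1 faces the intermembrane space and bridges the partners of the complex IV dimer. The erythroid Cox6b1 signals were 16239, 14043, 21380 and 13061 and its epithelial signals 17874, 14840, 23580 and 16282. Each erythroid value was below its partner, the groups overlapped, and pair 3 was high in both captures. The log2 difference was -0.35 ± 0.10 (SE, n = 4 pairs, limma adjusted p = 0.0391). A second probe set for the gene had a difference of 0.02 (limma adjusted p = 0.95), so that the call rests on 1 of 2 probe sets. It was also lost without pair 2 (adjusted p = 0.115), without pair 3 (adjusted p = 0.128) and without pair 4 (adjusted p = 0.171).

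Cox7a2l, the factor that joins complexes III and IV, was the single member among the 83 tested whose deposited signals did not overlap between the groups, which held for 13.7% of all genes tested. Its erythroid signals were 11199, 9858, 9453 and 10083 and its epithelial signals 13993, 11281, 11462 and 12275. On this probe set, the brightest, the difference was -0.30 ± 0.10 (SE, n = 4 pairs, limma adjusted p = 0.0711). A second probe set was called at -0.53 ± 0.12 (limma adjusted p = 0.015) and the remaining one had a difference of 0.03. Hence 1 of 3 probe sets of the gene passed the test.

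Several complex IV subunits exist as isoforms, one made in most tissues and another in heart and skeletal muscle, lung or testis. As a background level, each array's value under which 95% of 117 probe sets lay was taken, those for odorant receptors and other genes not expected in yolk sac. It ran from 55.1 to 132.6 over the 8 arrays. The isoforms of most tissues, Cox4i1, Cox6a1, Cox6b1, Cox7a2 and Cox8a, were above it on all 8 arrays. Their differences were -0.16, -0.03, -0.35, -0.13 and 0.47. Ndufa4, a subunit of complex IV despite its name, was above it on all 8 arrays too and had a difference of -0.19.

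The isoforms of heart and skeletal muscle, lung and testis lay near the background. Cox4i2, the lung isoform, was above the background on 1 of 8 arrays, with erythroid signals from 54.4 to 75.5 and epithelial signals from 31.6 to 110. Cox8b, an isoform of heart and skeletal muscle, was above it on 3 arrays. Neither was tested, and no difference can be read from values at that level. Cox6a2, another muscle isoform, was above the background on 5 arrays and had a difference of -0.27 ± 0.40 (SE). Cox8c, the testis isoform, was also above it on 5 arrays, and its difference of -0.46 ± 0.63 (SE) took in 2.12 in pair 1 and -2.42 in pair 3.

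On the probe sets read, Cox7a1, the muscle isoform of subunit 7a, had the largest difference of the members tested, -0.87 ± 0.33 (SE, n = 4 pairs, limma adjusted p = 0.109). The erythroid Cox7a1 signals were 72.0, 113, 128 and 123 and its epithelial signals 115, 283, 180 and 159. It was lower in the erythroid capture of every pair, and was above the background on 3 of 4 erythroid and on all 4 epithelial arrays. The signals were low, and the difference did not pass the threshold.

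Cox6b2, the testis isoform of subunit 6b, reached the array median on 3 arrays and so was not tested with the others. Its erythroid signals were 195, 92.6, 275 and 424 and its epithelial signals 30.9, 54.3, 53.3 and 80.0. Every erythroid value was above every epithelial value. The signal was above the background on 3 of 4 erythroid arrays and on 1 of 4 epithelial arrays, and in pair 2 it was below the background in both captures. With most epithelial values at background, the size of the difference cannot be read. A limma fit of every probe set without the filter called the gene, as it did 6.89% of all genes, and that call rests on the same low epithelial values.

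**Figure D2:**
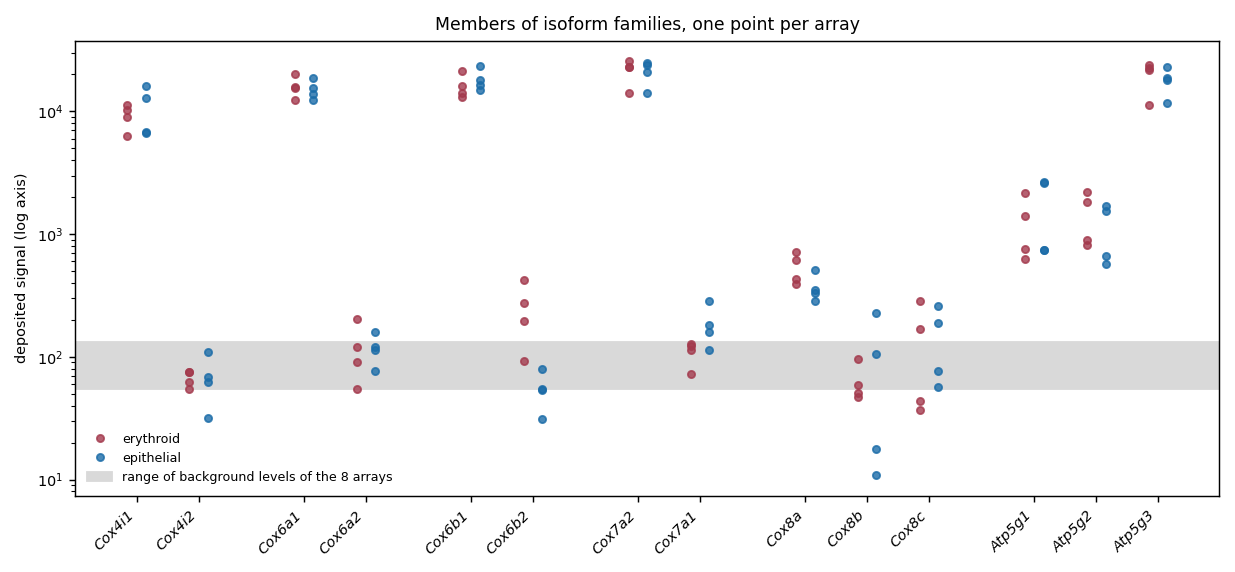
Deposited signal (log axis) of members of 6 isoform families, with 1 point per array for the 4 erythroid and 4 epithelial captures, and the grey band marking the background levels of the 8 arrays, 55.1 to 132.6. Each gene is to be read against the band and between its own captures, since signals of different probe sets cannot be compared, and the erythroid points of Cox6b2 lie above its epithelial ones, which are in or under the band.

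ATP synthase had 17 subunits, all tested. Atp5a1 was called lower, 5 values were above 0 and 12 below, and the median difference was -0.11. The medians of pairs 1 to 4 were 0.01, -0.05, -0.21 and -0.05. Without adjustment, 3 subunits had a p under 0.05 with higher values (Atp5l, Atp5e and Atp5g2) and 2 with lower values (Atp5a1 and Atp5md). Over probe sets with no x, s or a in their identifier alone, the median of the complex was 0.13, so its sign depends on which probe sets are read.

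Atp5a1 encodes the alpha subunit of the catalytic head. Its erythroid signals were 14702, 16473, 13756 and 8929 and its epithelial signals 18149, 14909, 15908 and 12080. In the deposited signals pair 2 went the other way from the rest, and after quantile normalisation all 4 pairs were below 0. The difference was -0.33 ± 0.09 (SE, n = 4 pairs, limma adjusted p = 0.0423). Its other probe sets had differences of 0.13 and -0.78, and neither was called. The call was lost when any 1 pair was left out (limma adjusted p from 0.0605 to 0.175). Atp5b, the beta subunit, which carries the catalytic sites, had a difference of -0.07 (limma adjusted p = 0.83).

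The 4 subunits of the peripheral stalk, which holds the head still, were Atp5pb, Atp5h, Atp5j and Atp5o. All were within 0.17 of 0 and below it on the probe sets read, and none was called. Other tested probe sets of Atp5h, Atp5pb and Atp5o had differences of 0.18, 0.01 and -0.29, and none of these was called. The central stalk, which turns inside the head, was less even. Atp5e, its smallest subunit, had a difference of 0.49 ± 0.19 (SE, n = 4 pairs, limma adjusted p = 0.108), Atp5c1 one of -0.11 and Atp5d one of -0.28.

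The ring subunit c is made from 3 genes whose mature proteins are the same and whose leader peptides differ. Atp5g1 had a difference of -0.33, Atp5g2 of 0.43 and Atp5g3 of 0.00, and none was called. The erythroid signals of Atp5g1 were 755, 624, 1411 and 2150, against 747, 738, 2654 and 2592. Those of Atp5g2 were 897, 821, 1839 and 2224, against 566, 664, 1681 and 1554. Atp5g2 was higher in the erythroid capture of all 4 pairs and Atp5g1 was below 0 in all 4 after normalisation. The difference between these genes was not itself tested. Atp5g3 had a 95% interval from -0.18 to 0.19.

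Atp5l, subunit g of the membrane part, had the largest difference of ATP synthase, 0.65 ± 0.26 (SE, n = 4 pairs, limma adjusted p = 0.118). The erythroid Atp5l signals were 584, 537, 1086 and 1207 and its epithelial signals 437, 598, 481 and 549. The epithelial values were alike in all pairs, and the erythroid values were high in pairs 3 and 4.

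**Figure D3:**
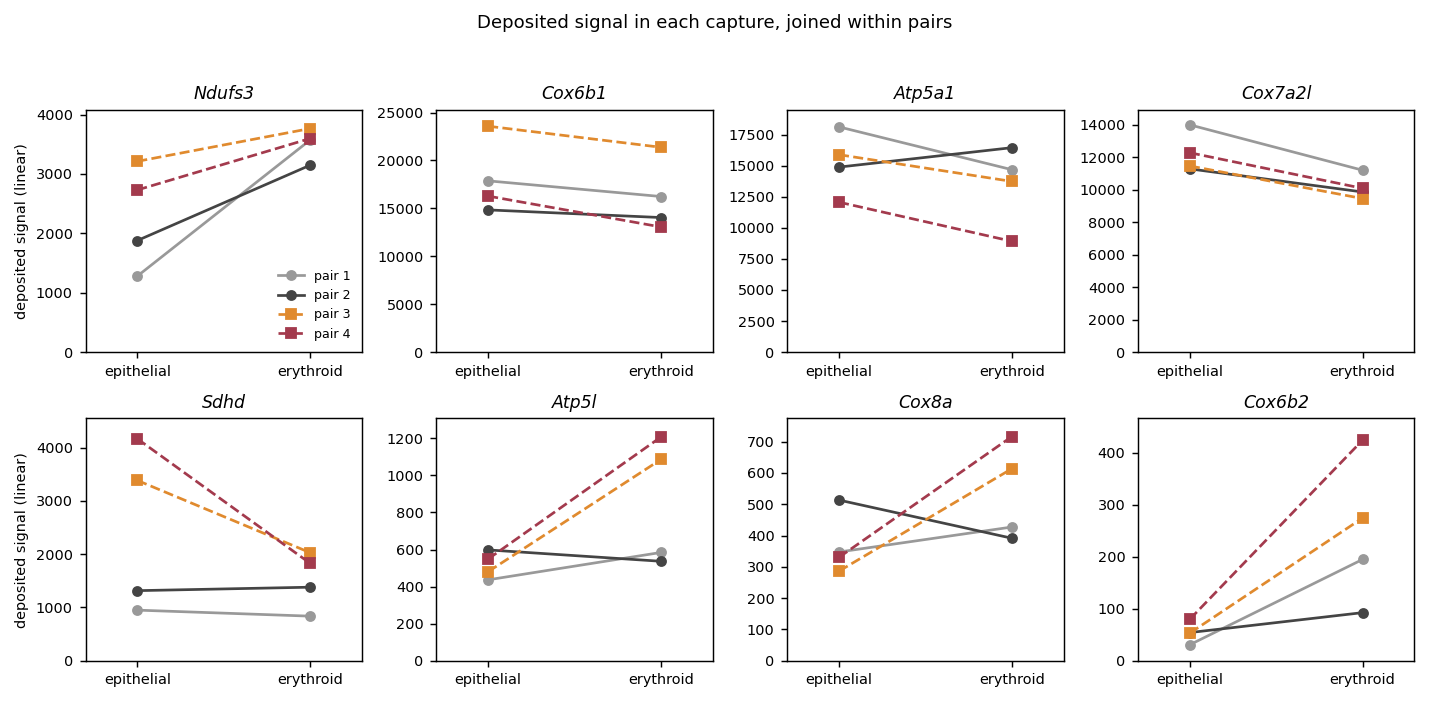
Deposited signal (linear axis from 0) of 8 members in the epithelial and erythroid capture of each pair, with 1 line per pair, solid for pairs 1 and 2 and dashed for pairs 3 and 4. On the probe sets read, Ndufs3 is higher in the erythroid capture of all 4 pairs, and Cox6b1 and Cox7a2l are lower in all 4. Sdhd, Atp5l and Cox8a differ mainly in pairs 3 and 4 on these probe sets.

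The 8 assembly factors, which build the complexes and do not remain in them, had a median difference of 0.34, with 6 values above 0. None was called and none had an unadjusted p under 0.05 (limma). Ndufaf1, which helps assemble complex I, had the largest difference, 0.61 ± 0.30 (SE, n = 4 pairs, limma adjusted p = 0.199). All 3 assembly factors of complex II, Sdhaf1, Sdhaf2 and Sdhaf4, had values above 0 (0.31, 0.43 and 0.38), and a second probe set of Sdhaf2 had a difference of -0.26.

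The 2 sets of pairs differed in the 3′ to 5′ ratios of control probe sets. Control probe sets at the 3′ end of Gapdh were brighter than those at its 5′ end, a ratio that grows as RNA shortens. It was 38.7 to 44.4 for pairs 1 and 2 but 7.0 to 17.4 for pairs 3 and 4. For Actb the same ratio was 46.5 to 131 in the first set but 7.75 to 13.5 in the other. Members lying farther from 0 in pairs 3 and 4 than in pairs 1 and 2 numbered 60 of 83, and 27 had opposite signs in the sets. Neither count was made over all genes, so neither can be read as particular to the members. No member passed the test of the difference between the sets (limma, lowest adjusted p = 0.0981, for Atp5c1), and 10 had an unadjusted p under 0.05. With adjustment, that test called 2.00% of all genes, and the unadjusted count is not set beside one over all genes. Whether RNA quality made the ratios differ, and its part in these values, was not tested.

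Fitted alone, pairs 3 and 4 gave 15 called members (18.1%), where 26.7% of all genes were called. Of these, 6 were higher: Atp5l (1.18), Cox8a (1.01), Atp5e (0.84), Cox6c (0.64), Ndufa6 (0.59) and Ndufa12 (0.50). The other 9 were lower, led by Sdhd (-0.96) and Ndufa8 (-0.71), with Ndufs7, Atp5c1, Cox4i1, Ndufb9, Cox6b1, Atp5a1 and Atp5h between -0.56 and -0.33. In pairs 1 and 2 alone, 3 members were called (3.61%) and 8.93% of all genes: Ndufs3 (1.07) and Sdhaf2 (0.82) were higher and Atp5d (-0.47) was lower. No member called in pairs 1 and 2 was among those called in pairs 3 and 4, and each of these fits rests on 2 samples a group.

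Cox8a shows how far the sets can part. The erythroid Cox8a signals were 427, 392, 613 and 716 and its epithelial signals 347, 513, 286 and 331. Its difference was -0.06 in the first set but 1.01 in the other, with a test between them that did not pass (limma adjusted p = 0.273). A second probe set of Cox8a had a difference of -0.37 over the 4 pairs. Cox4i1 had a difference of 0.14 in the first set but -0.47 in the other (limma adjusted p = 0.255 for the difference).

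**Figure D4:**
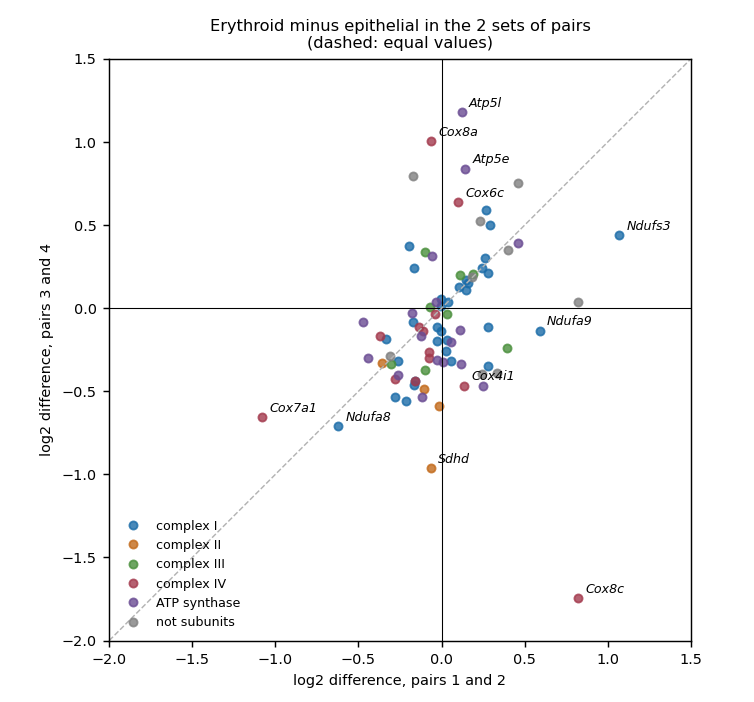
Log2 difference, erythroid minus epithelial, of the 83 members tested in pairs 1 and 2 (horizontal axis) and in pairs 3 and 4 (vertical axis), coloured by complex, with equal values on the dashed line. Ndufs3 lies to the right at 1.07 and 0.44, Atp5l and Cox8a lie near the top with values close to 0 on the horizontal axis, and Cox8c, near background, lies at 0.82 and -1.74.

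Probe sets of the same gene did not always give the same answer. Of the 83 members, 43 had more than 1 tested probe set, and in 23 of these the differences did not all have the same sign. Over the 143 member probe sets tested, 4 were called, where 13.9% of all 11449 probe sets tested were called. The 4 were those of Ndufs3, Cox6b1, Atp5a1 and Cox7a2l. The last 3 of these genes had at least 1 other tested probe set, and none of those was called. Cox6c, a subunit of complex IV, had differences of 0.37 and -0.11 on its 2 probe sets.

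Genes of the same pathways that the symbol rule does not take were read in the same fit. That fit called 6.02% of all genes tested as higher and 8.87% as lower. The counts of each list that follows are to be read against these shares. Of other chain subunits and partners, Cyc1, the cytochrome c1 of complex III, had a difference of -0.14, Cycs, somatic cytochrome c, of -0.03, and Atpif1, the inhibitor of ATP synthase, of -0.06. None of these 3 had an unadjusted p under 0.05 (limma). Of the 13 subunits encoded in mitochondrial DNA, ND5 of complex I was the 1 measured, with a difference of -0.27 ± 0.12 (SE, n = 4 pairs, limma adjusted p = 0.165). Of 27 assembly factors outside the rule, Cox20, an assembly factor of complex IV, rose (0.74 ± 0.20, SE, n = 4 pairs, limma adjusted p = 0.0326) and none fell, with a median of 0.16.

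The steps before the chain had medians below 0 over the 4 pairs. Of 18 genes of the Krebs cycle and pyruvate dehydrogenase, 15 had values below 0, the median was -0.27, and 1 was called: Dlst, the core of 2-oxoglutarate dehydrogenase, fell (-0.93 ± 0.20, SE, n = 4 pairs, limma adjusted p = 0.0123). Dlst acts at the step that makes succinyl-CoA, a starting material of haem. Of 12 genes for other routes of electron entry and for ubiquinone synthesis, 11 were below 0 with a median of -0.21, which was 0.13 for pairs 1 and 2 but -0.43 for pairs 3 and 4. None of the 12 was called and 1 had an unadjusted p under 0.05 (limma).

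Of 8 genes for ATP export and uncoupling, 2 fell: Slc25a4, which exchanges ATP for ADP, by 0.43 (limma adjusted p = 0.0121) and Slc25a3, which carries phosphate inward, by 0.39 (adjusted p = 0.0409). Slc25a5, another exchanger of ATP for ADP, had a value of 0.29, higher in all 4 pairs, and did not pass (adjusted p = 0.0986). It was chosen after its value was seen. The median of the 8 was -0.18. Of 16 genes for mitochondrial biogenesis, Myc rose (1.04) and Polg, the mitochondrial DNA polymerase, fell (-0.77), with a median of -0.04. Of 73 genes of the mitochondrial ribosome, which translates the mitochondrially encoded subunits, 6 rose and 1 fell, with a median of 0.11. Mrpl33 (1.16) and Mrpl35 (0.87) rose most, and Mrps26 fell (-0.56).

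The identity of the captures was read from marker genes. Of 17 erythroid markers, 13 were higher in erythroid captures and none was lower, with a median of 2.04 (1.21 in pairs 1 and 2, 2.84 in pairs 3 and 4). Of 23 markers of visceral endoderm, the epithelium of the yolk sac, 19 were lower, none was higher and the median was -1.44. Their summed signal was 95902 to 125338 in erythroid captures beside 157509 to 254814 in epithelial captures. Afp and Ttr, secreted products of that tissue, were much of the sum in erythroid captures, with mean signals of 26340 and 28477, and differed by -0.16 and -0.20. Erythroid markers in turn summed to 53220 to 98720 in epithelial captures, beside 94994 to 177591 in erythroid ones. The globins Hbb-bh1 and Hbb-y were most of the sum in epithelial captures, with mean signals of 36732 and 30017, and differed by -0.11 and 0.07.

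Markers of other cell types were higher in erythroid captures too. Of 13 tested markers of mesenchyme, smooth muscle and mesothelium, 7 were called higher, with a median of 1.3, which was 0.34 for pairs 1 and 2 but 2.39 for pairs 3 and 4, and summed signals of 40258 to 62458 against 9231 to 35938, and Cnn1 was below background on all arrays. Of 7 megakaryocyte markers 4 were called higher (summed 5711 to 18935 against 1784 to 2992, Gp9 below background), and of 9 endothelial markers 1 (1868 to 3376 against 914 to 1838, Pecam1 and Tie1 below background). Of 5 leukocyte markers none was called and 3 had an unadjusted p under 0.05 (limma, summed 1729 to 2631 against 1003 to 1609, with Cd68, Aif1, C1qa and Itgam below background). The part of these other cells in the values of the respiratory chain was not tested. In captures of many cells, fewer cells of a type and less RNA per cell cannot be told apart.

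Signals over the series were similar in scale. The median signal of an array was 81.5 to 127, the highest 24645 to 58408, and 48.7% to 57.7% of probe sets were above background. The precision of every value is limited by the number of arrays, 4 in each group.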

How the data were processed

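Expression was measured in 8 samples, 4 erythroid and 4 epithelial, in 4 pairs that the labels' protocols describe as cut from shared slides. The authors deposited 1 intensity per probe set and array on a linear scale, the MAS5 signal, and the trimmed mean of each deposited array was 500. Per the submitters' processing notes, the tools were GCOS, MAS5 and affy, each of a version not given in the sources used here. Detection calls were not used here.

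From the deposited values, log2 was taken after adding an offset of 8.14 (their 10th percentile). Array medians then spanned 0.59, and arrays were quantile normalised. Of 22626 probe sets that are not controls, 11449 reached their array's median on at least 4 of 8 arrays and were tested with limma 3.58.1 (R 4.3.3), by lmFit followed by eBayes with the variance trend on. The fit had the pair and the cell type as terms, which left 3 residual degrees of freedom. P-values are two-sided and adjusted by the Benjamini-Hochberg method for all probe sets tested, at a threshold of 0.05. The difference between pairs 1 and 2 and pairs 3 and 4 was tested as an interaction. The procedure was tested on simulated data.

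Genes were named through the platform annotation, and read from their tested probe set with the highest mean. Members had 160 probe sets of their own, and 8 more that were annotated to several genes were not used. Sequences came from a RefSeq table. The pairing was checked: deviations of paired samples from their group means correlated at 0.44, 0.34, 0.31 and 0.54. Samples of different pairs within pairs 1 and 2 or within pairs 3 and 4 correlated at 0.28 to 0.35, as high as pairs 2 and 3 themselves, and across these sets at -0.45 to -0.29. The correlations thus part the sets, and the pairing rests on the labels.

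The members, complexes and lists were chosen with earlier results of these data known. The lists were other chain subunits, mitochondrially encoded subunits, assembly factors, Krebs cycle and pyruvate dehydrogenase, electron entry and ubiquinone, ATP export and uncoupling, mitochondrial biogenesis and mitochondrial ribosome, with markers of 6 cell types. Members were named by rule: all called, the largest and smallest difference among the subunits of each complex, isoform families, members whose probe sets differ in call, and the 2 called genes with the largest change in each direction of each other list. The other members named were chosen after their values were seen or to complete a complex. Alternatives changed the scaling, the offset, the filter, the pair term, the variance trend, the pairs used and the probe sets read.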

Additional observations from a re-analysis of the deposited data

How the results depend on the processing

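Of 702 values recomputed under 17 alternatives, 565 kept their side of the threshold and, where called, their direction, or moved by less than their spread; 26 values of named genes that were uncalled both ways changed sign. Atp5a1 (0.13) and Cox6b1 (0.019) reversed when probe sets with x, s or a in their identifier were left out, which reads another probe set of each gene. Without the replicate block, that is without the pair term, no member was called in either direction (0 higher, 0 lower, complexes I, IV and V included), and 160 probe sets were called higher and 285 lower in place of 709 and 881. Without a variance trend the counts were 179 and 339, with 0 members.

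Centring arrays on their medians moved the median of all genes to -0.14 and that of the members to -0.21. It gave 455 higher and 1097 lower probe sets, medians of -0.17, -0.54, -0.11 and -0.24 in complexes I, II, III and V, 0 members higher and 1 lower (Ndufa8, complex I), and 0 in complexes IV and V. With 75th percentiles 0 members were called, in complexes I, IV and V too. With deposited scaling 0 members were lower, in complexes IV and V too, and the complex III median was 0.076. Without a filter 2 members were higher (1 in complex IV, Cox6b2) and 0 lower, in complexes IV and V too. With the mean of a gene's probe sets 0 members were lower (0 in complexes IV and V), with medians of 0.091 in complex III and -0.011 in complex V. With no x, s or a probe sets 0 were lower (0 in complexes IV and V), with medians of 0.14 and 0.13.

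Pairs 1 and 2 alone gave 2 members higher and 1 lower (0 lower in complex IV), 543 probe sets lower, and medians of -0.088 in complex II and -0.019 in complex III. Pairs 3 and 4 alone gave 1402 and 1457 probe sets and 6 and 9 members: 2 higher in each of complexes I, IV and V, and 3, 1, 2 and 3 lower in complexes I, II, IV and V, with medians of -0.097, -0.54 and -0.012 in complexes I to III. Leaving out 1 pair at a time gave 202 to 690 probe sets higher and 332 to 829 lower, both lowest without pair 4, with 312 and 460 without pair 3. Members higher ranged from 0 to 2 and lower from 0 to 2. By complex, those higher ranged from 0 to 1 in complexes I, IV and V, and those lower from 0 to 1 in complexes I and IV and from 0 to 0 in complex V. The median of complex II ranged from -0.52 (without pair 1) to -0.30, and that of complex III from -0.014 to 0.043. The cause of these shifts was not tested. With 4 pairs and 3 residual degrees of freedom, differences near the median standard error of 0.16 cannot be told from 0, and probe sets near background limit the muscle, lung and testis isoforms.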
